A study of Homo sapiens with 6 samples.

Results

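The anaphase-promoting complex was followed in T24, a long-established human bladder carcinoma cell line, through 10 genes taken by symbol from a deposited table of 58825 genes: CDC20, FZR1, FBXO5, PTTG1, ESPL1, UBE2C, UBE2S, CDC27, CDC16 and ANAPC1. Each symbol matched 1 row, and all 10 passed the filter on low values (at least 1 FPKM in at least 3 libraries), which kept 12714 genes. FPKM are fragments scaled to transcript length and to sequencing depth, so levels of different genes can be compared per length. Control cells carried the hairpin shNC-1 and are labelled WT, and knockdown cells carried shDLGAP5-1, a single hairpin against DLGAP5. Each group had 3 libraries, and both were grown in the same serum-supplemented medium. The time between introduction of the hairpins and harvest is not given in the sources used here. Whether the libraries of a group are separate cultures is not stated, so the p-values below reflect spread between libraries that may be technical.

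The anaphase-promoting complex, or APC/C, is a ubiquitin ligase of many subunits that marks mitotic proteins for destruction by the proteasome. It works with an activator, CDC20 in mitosis and FZR1 (CDH1) from late mitosis through G1, and with a pair of ubiquitin-conjugating enzymes, UBE2C and UBE2S. Its destruction of securin (PTTG1) frees the protease separase (ESPL1), which cuts the cohesin that holds sister chromatids together, and its destruction of cyclin B lets cells leave mitosis. FBXO5 (EMI1) blocks the complex during S and G2 phase. DLGAP5 binds spindle microtubules, and the series concerns DLGAP5 together with the transcription factor E2F1.

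DLGAP5 itself served as the check of the labels. Its level was 33.0, 32.7 and 29.7 FPKM in the shNC-1 libraries and 5.03, 4.0 and 7.51 FPKM in the shDLGAP5-1 libraries, values here and below being in the order of replicates 1, 2 and 3. The log2 fold change was −2.37 (limma adjusted p = 0.000894). Depth, estimated from the smallest repeated step in the values, was about 21600000 to 27500000 fragments in shNC-1 and 13700000 to 18300000 in shDLGAP5-1 libraries. At that depth the lowest library of any of the 10 genes held about 538 fragments, a counting error of about 4.31%. Of 6 epithelial markers, 5 reached 1 FPKM in 3 libraries, with KRT7 at 566 to 855 FPKM, while E-cadherin (CDH1, a cadherin gene that shares a name with the FZR1 protein) stood at 0 to 0.167 FPKM and none of 6 urothelial markers reached 1 FPKM in 3 libraries. Summed over 12 leukocyte markers, shDLGAP5-1 replicate 3 held 806 FPKM, of which LYZ made up 686, against 2.06 to 24.8 FPKM in the other libraries. CD3E was listed at 0 throughout. CD14 (0.482 FPKM, against 0.128 to 0.536 elsewhere) and CD79A (0.0968, against 0 to 0.169) were not raised in that library, and the remaining leukocyte markers were highest there. PECAM1, which leukocytes also express, stood at 8.45 FPKM in the same library, while the other endothelial markers CDH5, KDR and VWF were at 0 to 0.0455 FPKM in all, and fibroblast markers summed to 1.45 to 6.8 FPKM.

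CDC20, UBE2S, ESPL1 and ANAPC1 fell in shDLGAP5-1 cells, and no member rose. These are the mitotic activator, the chain-elongating ubiquitin-conjugating enzyme, separase and the largest scaffold subunit. CDC20 had the largest change of the 10 genes, with a percent change of −55.8 in mean level. The 4 falls among 10 members compare with 9.52% of all tested genes called lower, and the 0 rises with 15.3% of all tested genes called higher (limma, Benjamini-Hochberg adjusted p under 0.05). The median log2 fold change was −0.33 over the members and 0.03 over all tested genes. All shDLGAP5-1 libraries lay below all shNC-1 libraries for 6 members, the 4 above with CDC27 and CDC16, where 18.3% of tested genes did so. In bulk RNA, fewer cells in mitosis and less of a transcript per cell cannot be told apart. Without shDLGAP5-1 replicate 3, the library with leukocyte transcripts, the same 4 genes were called, at log2 fold changes of −1.13 for CDC20, −0.58 for UBE2S, −0.69 for ESPL1 and −0.50 for ANAPC1. The others, none of them called, were then at −0.22 for FZR1, 0.03 for FBXO5, −0.17 for PTTG1, −0.14 for UBE2C, −0.37 for CDC27 and −0.32 for CDC16.

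**Figure D1:**
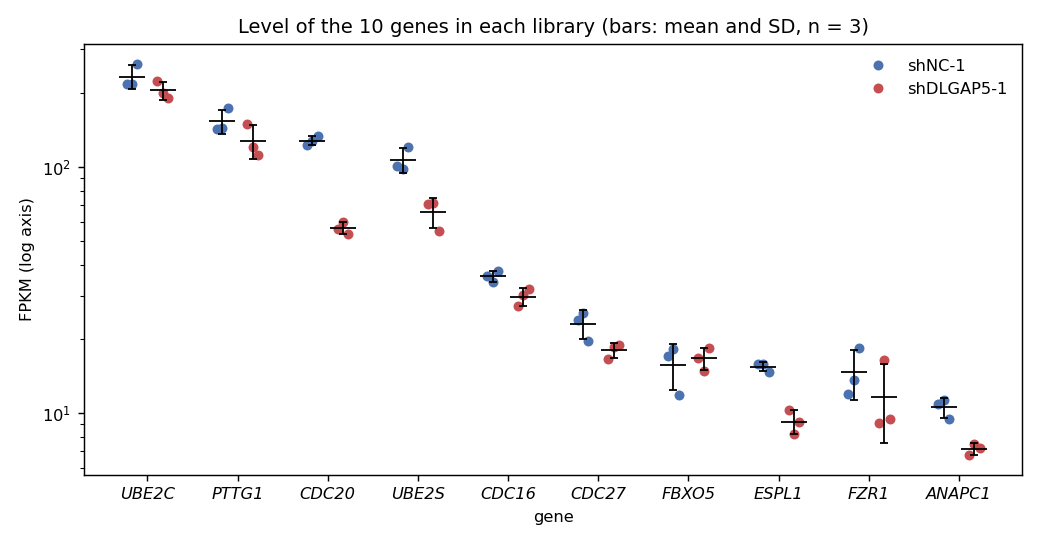
FPKM of each gene (log axis) in each of 6 libraries, blue for shNC-1 and red for shDLGAP5-1, with bars for the mean and SD of 3 libraries and genes ordered by their control mean. CDC20 shows the widest gap, 123 to 134 FPKM against 53.6 to 59.8, while the groups overlap for UBE2C, PTTG1, FBXO5 and FZR1.

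Of the activators, CDC20 fell and FZR1 did not pass, and the test of their ratio is given below. CDC20 (ENSG00000117399, GRCh38 chromosome 1, 43358981 to 43363203, plus strand) had levels of 123, 127 and 134 FPKM under shNC-1, against 56.1, 59.8 and 53.6 FPKM under shDLGAP5-1. The knockdown libraries were all far under the controls and close to each other. Its log2 fold change was −1.17 (standard error 0.10, 95% interval −1.39 to −0.94, limma adjusted p = 0.000912), and 120 of the 12714 tested genes had a more negative one. FZR1, the activator of late mitosis and G1 (chromosome 19, 3506273 to 3538330, plus strand), measured 12.0, 13.6 and 18.4 FPKM with shNC-1 and 9.14, 16.4 and 9.5 FPKM with shDLGAP5-1. The groups overlapped, since shDLGAP5-1 replicate 2 lay above 2 of the controls. Its log2 fold change of −0.33 had a 95% interval from −0.91 to 0.24 (limma adjusted p = 0.353), which includes 0. Its size varied with single libraries, at −0.58 without shDLGAP5-1 replicate 2 (limma adjusted p = 0.0887), −0.17 without shNC-1 replicate 3 (limma adjusted p = 0.676), −0.20 without shDLGAP5-1 replicate 1 and −0.22 without shDLGAP5-1 replicate 3. FZR1 overlaps MFSD12, which lies on the opposite strand at 49.2 and 60.4 FPKM in shNC-1 and shDLGAP5-1, and the use of strand in counting is not given in the sources used here.

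FBXO5, the S and G2 phase inhibitor (chromosome 6, 152970519 to 152983579, minus strand), did not differ beyond the scatter of its libraries. Control libraries held 17.1, 18.2 and 11.9 FPKM and knockdown libraries 16.8, 14.9 and 18.4 FPKM. shNC-1 replicate 3 was the lowest of all 6 libraries, and the groups overlapped. The log2 fold change was 0.10 (95% interval −0.31 to 0.51, limma adjusted p = 0.707). Its sign depended on that library and on scaling, with −0.08 without shNC-1 replicate 3 and −0.01 when every library was brought to an equal total.

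Of the ubiquitin-conjugating enzymes, UBE2S fell and UBE2C did not pass, and the test of their ratio is given below. UBE2S (ENSG00000108106, chromosome 19, 55399745 to 55407788, minus strand), which extends the ubiquitin chains, measured 101, 98.4 and 121 FPKM with shNC-1 and 70.4, 71.5 and 55.2 FPKM with shDLGAP5-1. Every knockdown library was below every control, and shDLGAP5-1 replicate 3 was the lowest. The log2 fold change was −0.70 (standard error 0.14, 95% interval −1.03 to −0.36, limma adjusted p = 0.0143). UBE2S overlaps the ribosomal protein gene RPL28 on the opposite strand, and RPL28 moved the other way, from 128 to 236 FPKM. UBE2C, which starts the chains (chromosome 20, 45812576 to 45816957, plus strand), was the most abundant member, at 218, 217 and 263 FPKM in shNC-1 and 224, 199 and 191 FPKM in shDLGAP5-1. Here the groups overlapped, with shDLGAP5-1 replicate 1 above 2 of the controls. Its log2 fold change was −0.18 (95% interval −0.48 to 0.11, limma adjusted p = 0.319), and −0.09 without shNC-1 replicate 3 (limma adjusted p = 0.635).

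Of the 3 core subunits among the members, ANAPC1 fell and the other two missed the threshold. ANAPC1 (ENSG00000153107, chromosome 2, 111611639 to 111884690, minus strand), the scaffold that joins the arms of the complex, measured 10.9, 11.3 and 9.44 FPKM with shNC-1 and 6.75, 7.5 and 7.25 FPKM with shDLGAP5-1. The groups did not overlap. The log2 fold change was −0.49 (standard error 0.12, 95% interval −0.77 to −0.22, limma adjusted p = 0.0221), a call lost without shNC-1 replicate 1 (limma adjusted p = 0.0867) or replicate 2 (limma adjusted p = 0.103). CDC27 (APC3), a repeat protein that docks the activators (chromosome 17, 47117703 to 47189422, minus strand), measured 24, 25.6 and 19.7 FPKM with shNC-1 and 16.6, 18.6 and 19.0 FPKM with shDLGAP5-1. Its groups did not overlap, but 19.7 and 19.0 FPKM were close (log2 fold change −0.33, 95% interval −0.63 to −0.03, limma adjusted p = 0.102). CDC16 (APC6), another repeat subunit (chromosome 13, 114234887 to 114272723, plus strand), measured 36.0, 34.1 and 37.9 FPKM with shNC-1 and 27.2, 30.1 and 32.0 FPKM with shDLGAP5-1. Again no libraries overlapped, and the log2 fold change was −0.27 (95% interval −0.51 to −0.02, limma adjusted p = 0.106). For both genes the interval of the single gene lay below 0, and the p adjusted over all 12714 genes did not pass.

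Securin is the inhibitor and separase the protease of a single complex, and the test of their ratio is given below. PTTG1, securin (chromosome 5, 160421855 to 160428739, plus strand), measured 142, 144 and 173 FPKM with shNC-1 and 150, 121 and 112 FPKM with shDLGAP5-1. The library shDLGAP5-1 replicate 1 lay between the controls, so the groups overlapped. Its log2 fold change was −0.26 (95% interval −0.61 to 0.08, limma adjusted p = 0.229), and −0.17 with either shNC-1 replicate 3 or shDLGAP5-1 replicate 3 left out. ESPL1, separase (ENSG00000135476, chromosome 12, 53268299 to 53293643, plus strand), measured 15.8, 15.9 and 14.7 FPKM with shNC-1 and 10.3, 8.20 and 9.24 FPKM with shDLGAP5-1. All knockdown libraries were clearly below all controls. The log2 fold change was −0.69 (standard error 0.12, 95% interval −0.96 to −0.41, limma adjusted p = 0.00793).

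In exact two-sided permutation tests of single genes, where 3 against 3 libraries cannot go below p = 0.1, that value was reached by each of the 6 members without overlap, and p ran from 0.3 to 0.8 for the other 4. Processed copies of the members could share reads with them, but their own levels were low. The highest were UBE2SP2 at 2.59 FPKM and CDC20P1 at 2.17 FPKM in their highest library.

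**Figure D2:**
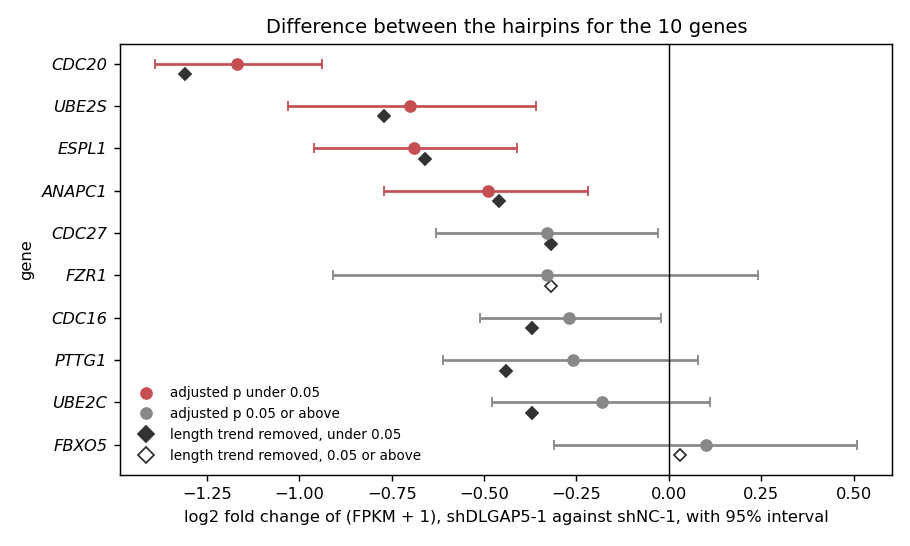
Log2 fold change of FPKM + 1, shDLGAP5-1 against shNC-1, for each gene with its 95% interval from limma (n = 3 each), red where the adjusted p is under 0.05, and diamonds for the estimate after a trend with transcript length was removed. CDC20, UBE2S, ESPL1 and ANAPC1 pass as measured, and UBE2C, PTTG1, CDC16 and CDC27 pass as well once the trend is removed.

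Removing a trend with transcript length changed the number of these calls. The members range from UBE2C, whose longest annotated transcript has 914 bases, and PTTG1, with 1070, to ANAPC1, with 8262. A smooth trend of each library against length put the shortest 10% of tested genes at 0.21 relative to the gene mean (log2) in shDLGAP5-1 replicate 1, 0.04 and 0.02 in replicates 2 and 3 of that group, and −0.14, −0.10 and 0 in shNC-1. The trend was thus strongest in single libraries. UBE2C and PTTG1 had their highest knockdown level in shDLGAP5-1 replicate 1. After the trend was removed, 8 members were lower: the log2 fold change was −0.37 for UBE2C (limma adjusted p = 0.0165), −0.44 for PTTG1 (limma adjusted p = 0.0140), −0.37 for CDC16 (limma adjusted p = 0.0277) and −0.32 for CDC27 (limma adjusted p = 0.0480). The estimate for CDC27 hardly moved, having been −0.33 with the trend left in (limma adjusted p = 0.102). FZR1 (−0.32) and FBXO5 (0.03) did not pass. The same correction also raised the falls among all tested genes, from 1211 to 1890. The part of RNA or library quality in this trend was not tested.

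Among all 10 genes in control cells, the levels per length spanned 22.2-fold. The order was UBE2C (233 ± 26.2 FPKM), PTTG1 (153 ± 17.4), CDC20 (128 ± 5.36), UBE2S (107 ± 12.6), CDC16 (36.0 ± 1.87), CDC27 (23.1 ± 3.05), FBXO5 (15.7 ± 3.38), ESPL1 (15.5 ± 0.698), FZR1 (14.7 ± 3.33) and ANAPC1 (10.5 ± 0.971; SD, n = 3). Conjugating enzymes, securin and the mitotic activator were thus the abundant transcripts of the 10, and the other members stood at 36.0 FPKM or less. Libraries of neighbours in this order overlapped only for FBXO5 with ESPL1 and ESPL1 with FZR1. In shDLGAP5-1 cells UBE2S (65.7 ± 9.09 FPKM) stood before CDC20 (56.5 ± 3.13), with overlap. FZR1 (11.7 ± 4.07) stood before ESPL1 (9.26 ± 1.08), and overlap also joined CDC27 (18.1 ± 1.28), FBXO5 (16.7 ± 1.73) and FZR1 in turn.

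Ratios between partner transcripts were compared for 5 pairs. CDC20 exceeded FZR1 by 10.2, 9.29 and 7.25 times in shNC-1 and by 6.13, 3.65 and 5.64 times in shDLGAP5-1. The balance of activator transcripts was lower in every knockdown library, with a log2 difference of −0.83 on the scale of FPKM + 1, and lowest in shDLGAP5-1 replicate 2. UBE2C exceeded UBE2S by 2.15, 2.21 and 2.17 times in shNC-1 and by 3.18, 2.78 and 3.45 times in shDLGAP5-1, a log2 difference of 0.51 with controls that hardly varied. FBXO5 stood at 0.139, 0.144 and 0.0889 of CDC20 in shNC-1 and at 0.3, 0.25 and 0.344 in shDLGAP5-1. That inhibitor-to-activator ratio was higher in every knockdown library, with a log2 difference of 1.26. FBXO5 alone was at 0.10 and CDC20 alone at −1.17, so most of this difference is the fall of CDC20 again. Each of these 3 pairs had an exact permutation p of 0.1, the smallest possible, and an adjusted p of 0.167 over the 5 pairs. Each also holds a called member, CDC20 or UBE2S, so these ratios are not independent of those calls. PTTG1 to ESPL1 was 8.95, 9.05 and 11.8 in shNC-1 and 14.5, 14.8 and 12.1 in shDLGAP5-1. The log2 difference was 0.42 on the scale of FPKM + 1, on which the test was run and replicates 3 of the groups overlap (exact permutation p = 0.2, adjusted p = 0.25). The FPKM ratios themselves do not overlap, with 11.8 next to 12.1. FBXO5 to FZR1 ran from 0.645 to 1.42 in shNC-1 and from 0.913 to 1.94 in shDLGAP5-1 and overlapped (exact permutation p = 0.5, adjusted p = 0.5). Without shDLGAP5-1 replicate 3, the log2 differences were −0.91 for CDC20 to FZR1, 0.44 for UBE2C to UBE2S, 0.52 for PTTG1 to ESPL1, 0.25 for FBXO5 to FZR1 and 1.16 for FBXO5 to CDC20. With the length trend removed, the log2 difference was 0.40 for UBE2C to UBE2S and 0.22 for PTTG1 to ESPL1.

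**Figure D3:**
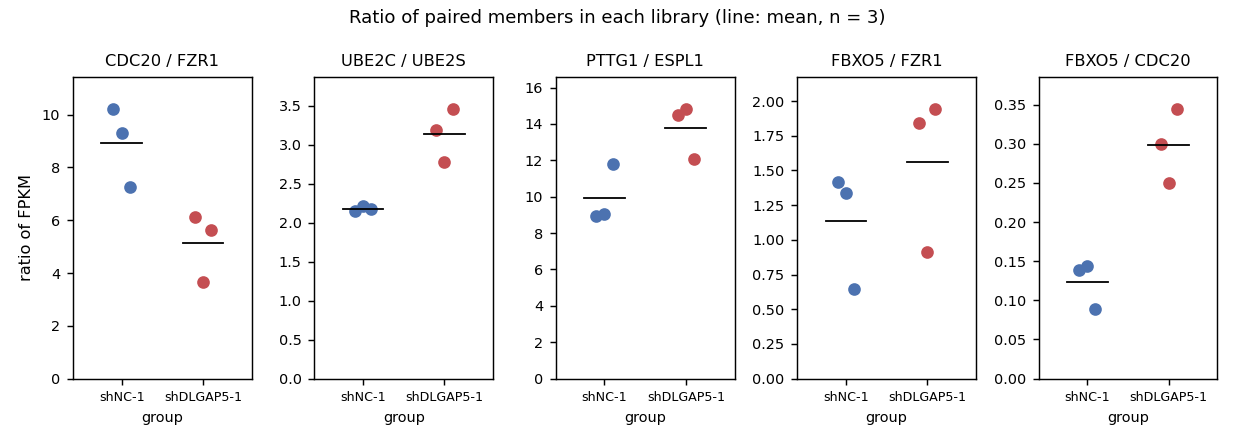
Ratio of FPKM of 2 members in each library, 1 panel a pair with its own axis from 0, blue for shNC-1, red for shDLGAP5-1 and a line for the mean of 3. The CDC20 to FZR1 ratio is lower in all knockdown libraries (3.65 to 6.13 against 7.25 to 10.2), and UBE2C to UBE2S, FBXO5 to CDC20 and, narrowly, PTTG1 to ESPL1 (12.1 to 14.8 against 8.95 to 11.8) are higher in all of them.

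The promoters are shown for the called genes CDC20, ESPL1 and UBE2S and for PTTG1, the target that restrains ESPL1, which did not pass as measured, because genes expressed in G2 and mitosis are known for a cell cycle element (CHR, searched as TTTGAA) near their start with CCAAT boxes, which bind NF-Y, at its side. RefSeq windows (GRCh38.p14) were found for 9 of the 10 members. UBE2C had no entry. ANAPC1, the fourth called gene, held none of the letters searched (0 matches), and its window is not shown because its RefSeq start lies inside the gene as GENCODE annotates it. Searched were the 250 bases before the start, on both strands, for TTTGAA, for CCAAT and for the E2F letters TTTGGCGC, TTTCCCGC, TTTGCCGC and TTTCGCGC. The last 150 bases before the start follow, 5′ to 3′ on the gene's strand, with matches on either strand in capitals. They cover chr1:43358831-43358980 (plus strand) for CDC20, chr12:53268149-53268298 (plus) for ESPL1, chr5:160421705-160421854 (plus) for PTTG1 and chr19:55407789-55407938 (minus) for UBE2S.
CDC20: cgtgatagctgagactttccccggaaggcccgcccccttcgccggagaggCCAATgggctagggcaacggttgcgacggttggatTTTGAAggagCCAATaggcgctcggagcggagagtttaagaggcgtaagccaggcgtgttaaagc
ESPL1: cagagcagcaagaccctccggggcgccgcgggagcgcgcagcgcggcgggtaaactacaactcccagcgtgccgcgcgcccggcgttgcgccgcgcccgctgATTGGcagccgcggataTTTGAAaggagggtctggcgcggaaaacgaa
PTTG1: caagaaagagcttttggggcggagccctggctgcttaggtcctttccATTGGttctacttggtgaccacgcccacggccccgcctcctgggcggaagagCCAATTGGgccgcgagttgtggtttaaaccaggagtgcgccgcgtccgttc
UBE2S: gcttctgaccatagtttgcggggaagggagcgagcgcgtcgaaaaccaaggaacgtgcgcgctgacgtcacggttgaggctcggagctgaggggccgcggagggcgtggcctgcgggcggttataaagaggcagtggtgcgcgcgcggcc

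CDC20 held TTTGAA at position −65 from the start with CCAAT at −100 and −55, and a further match of TTTGAA on the other strand at −178. ESPL1 held TTTGAA at −31 with CCAAT on the other strand at −48. PTTG1 held CCAAT on either strand at −103, −51 and −48, of which the last pair overlap, and no TTTGAA. UBE2S held CCAAT at −191 on the other strand, outside the stretch shown. Over the first window of each of 9 members, TTTGAA was in 3 (CDC20, ESPL1 and FZR1), CCAAT in 6 and E2F letters in 1 (CDC16). Of all 35116 promoter windows of that length, 13.3% held TTTGAA, 32.0% CCAAT and 2.79% the E2F letters. A second FBXO5 start, inside the gene, had 1 TTTGAA and 4 CCAAT matches. A match describes the letters only, and no binding was measured.

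No protein level or activity of the complex was measured, and transcripts of its substrates do not report that activity. Its known substrates beyond the members were followed as a list of transcripts only. It held 32 tested genes with a median of −0.59, of which 19 fell and none (0) rose. Of all tested genes, 9.52% were called lower and 15.3% higher. Cyclin B1 (CCNB1), whose loss ends mitosis, had a log2 fold change of −1.05, the mitotic kinase PLK1 −1.27, the spindle factor TPX2 −1.03 and the cytokinesis scaffold anillin (ANLN) −1.05 (limma adjusted p of 0.00113, 0.00133, 0.00228 and 0.00274). CDKN1A (0.77), E2F3 (0.44) and E2F1 (0.07), named after their values were seen, had positive log2 fold changes and did not pass. The 19 falls became 9, 12 and 12 without shNC-1 replicates 1, 2 and 3, and 18 without shDLGAP5-1 replicate 3. Among 11 further core subunits 0 fell and 1 rose, with a median of −0.09. A rise of 1 in 11 is not above the 15.3% of all tested genes called higher. That 1 was ANAPC16, a small subunit, at 25.1 ± 2.32 FPKM in shNC-1 and 39.4 ± 9.12 in shDLGAP5-1 (SD, n = 3; limma adjusted p = 0.0378), a call lost without any 1 shNC-1 library or shDLGAP5-1 replicate 3. CDC23 (−0.36), ANAPC7 (−0.43) and ANAPC5 (−0.28) had the next smallest p and did not pass. Without shDLGAP5-1 replicate 3, 2 subunits of that list were lower.

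The spindle checkpoint holds CDC20 until chromosomes are attached. Of 10 tested genes of the checkpoint, its disassembly and other inhibitors, 3 fell and 0 rose, with a median of −0.41. Among all tested genes, 9.52% were called lower and 15.3% higher. TRIP13, the ATPase that takes apart the checkpoint complex, went from 37.7 ± 1.95 to 19.8 ± 0.487 FPKM, the checkpoint kinase BUB1 from 41.9 ± 2.66 to 21.6 ± 4.37, and BUB3 from 67.7 ± 1.84 to 46.4 ± 5.76 (SD, n = 3 each; limma adjusted p of 0.00152, 0.00622 and 0.0164). MAD2L1BP (−0.41) had the next smallest p and did not pass. BUB1B (−0.45), TTK (−0.41), MAD1L1 (−0.38), MAD2L1 (0.16), FBXO43 (0.15) and MAD2L2 (0.12) did not pass either. The count was 2 without any 1 shNC-1 library or without shDLGAP5-1 replicate 2, 5 without shDLGAP5-1 replicate 3, and 7 with median-ratio scaling or the length trend removed. Falls among all tested genes rose as well, from 1211 to 1364 without shDLGAP5-1 replicate 3. They were 1534 with median-ratio scaling and 1890 with the length trend removed. Of 9 tested enzymes of complex control, such as deubiquitinases and the ligase that removes FBXO5, 1 fell, the cullin CUL1 (−0.37, limma adjusted p = 0.0403), and 0 rose. UBE2D1 (0.39), OTUD7B (−0.29) and CDC14A (0.36) did not pass, and the call of CUL1 was lost in 5 of the 6 fits without 1 library, all but that without shDLGAP5-1 replicate 3. Without shDLGAP5-1 replicate 2, 1 gene of this list was called higher. A fall of 1 in 9 is near the 9.52% of all tested genes called lower.

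In a list of cohesin-related and separase target genes, 1 of 9 tested fell and 0 rose, with a median of −0.16. The fall was the centrosome protein pericentrin (PCNT), from 10.0 ± 0.854 to 5.48 ± 1.84 FPKM (SD, n = 3 each; limma adjusted p = 0.0290). STAG1 (−0.32), SMC1A (−1.40) and PDS5B (0.21) had the next smallest p and did not pass. A count of 1 in 9 is near the 9.52% of all tested genes called lower. It became 0 without any 1 library except shDLGAP5-1 replicate 3, without which 3 fell.

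Of 18 tested proliferation markers, 9 fell, 1 rose and 8 did not pass, with a median of −0.35. The shares of all tested genes called lower and higher were 9.52% and 15.3%. The falls included the mitotic kinesins KIF20A (−1.12), KIF23 (−1.03) and KIF11 (−0.56) and the abscission protein CEP55 (−0.90), with limma adjusted p of 0.000912, 0.00651, 0.0109 and 0.00241. The rise was MCM6, a subunit of the replicative helicase, at 0.65 (limma adjusted p = 0.0171). The other replication genes in the list, MCM2 (−0.09), MCM3 (0.09), MCM4 (0.00), MCM5 (0.06), MCM7 (−0.10) and PCNA (0.39), did not pass. Nor did TOP2A (−0.20) and CDK1 (0.16), with limma adjusted p of 0.244 and 0.407. MCM6 and these genes were chosen for naming after their values were seen. Falls numbered 5 and 3 without shNC-1 replicates 1 and 2, and 6 without shDLGAP5-1 replicate 2. The rise of MCM6 was lost without any 1 shNC-1 library or shDLGAP5-1 replicate 2. Whether the falls of the members follow the share of cells in mitosis was not tested.

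**Figure D4:**
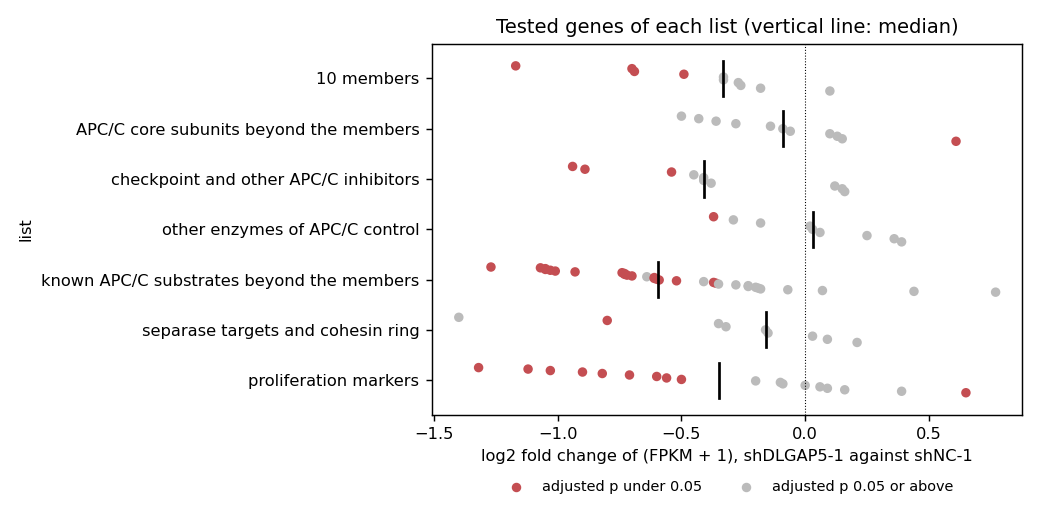
Log2 fold change of FPKM + 1, shDLGAP5-1 against shNC-1, of each tested gene by list, red where the limma adjusted p is under 0.05, with a vertical line at the list's median. Substrates sit lowest (median −0.59, 19 of 32 falling, where 9.52% of all tested genes were called lower). The checkpoint list (−0.41), proliferation markers (−0.35) and the 10 members (−0.33) follow. Separase targets (−0.16), further core subunits (−0.09) and control enzymes (0.03) are nearer 0.

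By profile over the 6 libraries, each gene centred on its own mean, the 4 genes closest to CDC20 among 6042 with a mean of at least 10 FPKM were HBEGF, ATAD3B, UAP1 and TRIB3, at root mean square differences of 0.053 to 0.060 on the log2 scale. Closest to UBE2C were EIF2S2, TMEM40, PSMD8, EIF3I and ZNF622 (0.036 to 0.044). FZR1 had no neighbour as close, with NAA10, GPX8, TSPAN17, HDHD5 and TMEM9B at 0.123 to 0.155.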

How the data were processed

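A single table of 58825 genes, with values already normalized by the authors, was used. Its header names no unit. Totals differ between libraries (413001 to 487559), and low values of single-exon genes pile up at a level inversely proportional to length, so the deposited values were taken as FPKM. The sources used here do not give the aligner, quantifier, annotation or strand use. Of the rows, 86.7% have the GRCh38 coordinates of GENCODE release 29. Of low values checked, 19.2% to 31.6% per library came out as whole fragments within 0.05, so counts were not recovered and depths are approximate.

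Knockdown columns carry a construct number and were given to shDLGAP5-1, the only group besides shNC-1, with replicate numbers as in the titles. The 12714 genes that reached 1 FPKM in 3 or more libraries entered a limma fit (version 3.58.1, R 4.3.3) of log2(FPKM + 1) on group alone, the prior variance following a trend with mean level. That scale understates changes of low genes. P-values were adjusted over all tested genes by Benjamini-Hochberg (threshold 0.05). The members and lists were chosen with earlier results of these data known. Named were all members, up to 4 genes of each list with the smallest p, and the 5 closest profiles of CDC20, UBE2C and FZR1. Of these profiles, 1 is not reported here. Alternatives were another pseudocount, filters, scalings, variance models, a replicate block and leaving out each library. The length trend was a lowess curve (span 0.3) of each library's deviation against the longest transcript in GENCODE release 29.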

Additional observations from a re-analysis of the deposited data

How the results depend on the processing

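The 4 members called lower were the same 4 with a pseudocount of 0.1, without a filter or with one of 5 FPKM, with same-total, median-ratio or quantile scaling, without a variance trend and with a robust prior. They numbered 8 with the length trend removed and 3 to 4 without 1 library. Replicate numbers did not pair the libraries (correlations of same-numbered deviations −0.16, 0.02 and −0.16), and with a replicate block 2 members were called, CDC20 and ESPL1, against 11 falls among substrates, 4 falls and 0 rises among proliferation markers, 0 rises among core subunits, 0 falls among control enzymes and 0 among separase targets. With the block, 513 of all tested genes were lower and 951 higher. FBXO5 changed sign to −0.01 with same-total scaling and −0.08 without shNC-1 replicate 3, and ran from −0.08 to 0.21 without 1 library.

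Over all tested genes, falls numbered 769 without a filter, 1534 with median-ratio scaling and 1890 with the length trend removed. Rises numbered 1168 with a filter of 5 FPKM and 1282 with same-total scaling. Without 1 library, falls ran from 472 to 1364 and rises from 863 to 1777. The share of calls that were higher was 61.6% as reported, 52.0% with a filter of 5 FPKM, 50.8% with quantile normalization, 48.1% with same-total scaling, 50% with the length trend removed and 52.4% with median-ratio scaling. Core subunits had 1 fall and 0 rises with median-ratio scaling or the length trend removed, 0 rises without a filter, and 0 to 2 falls and 0 to 1 rises without 1 library. Checkpoint falls were 5 with same-total scaling, 7 with median-ratio scaling or the length trend removed, and 2 to 5 without 1 library. Control enzymes had 0 falls without a filter, 2 with quantile normalization, and 0 to 1 falls and 0 to 1 rises without 1 library. Separase targets had 0 falls without a filter, 2 with median-ratio scaling or the length trend removed and 0 to 3 without 1 library. Substrate falls were 9 to 20 without 1 library. Proliferation markers had 0 rises with same-total scaling, 2 with quantile normalization, and 3 to 9 falls and 0 to 1 rises without 1 library. The length trend removed, an alternative chosen for ratios after seeing the data, gave log2 differences of 0.40 for UBE2C to UBE2S and 0.22 for PTTG1 to ESPL1. The causes of the shifts between settings were not tested. Fits without 1 library also hold fewer samples. Among all tested genes, 1364 fell without shDLGAP5-1 replicate 3, against 1211 with all 6 libraries. Counting error at the estimated depth, itself approximate, was about 4.31% at most for a member.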
